A study of Mus musculus with 4 samples.

Results

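Interferon regulatory factors are transcription factors that bind DNA through a conserved N-terminal domain and switch on interferon and interferon-response genes. The genes described here are the 8 whose symbols are Irf1 to Irf5 and Irf7 to Irf9, taken by symbol from the 24421 genes that each library lists. All 8 passed the filter on low values, a mean of at least 1 FPKM over the 4 libraries, as did 12011 genes in all. FPKM are fragments per kilobase of transcript, scaled to the mapped fragments of the library, so that levels can be compared between genes. Poly(A) RNA came from 2 mice with intact Usp25 (Usp25+/+, animals 139 and 140) and 2 mice without it (Usp25-/-, animals 826 and 850). The protein removes ubiquitin from others, and the knockout is not described as limited to a cell type. Per the labels, all 4 were C57BL/6 females aged 8 weeks, given 2.5% dextran sulfate sodium in water for 5 days and plain water for 2 days before the colon was taken. The comparison asks how the genotypes differ under that treatment, and no untreated animals were analysed here.

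The family divides by signal. Irf3 and Irf7 are phosphorylated by the kinases Tbk1 and Ikbke after nucleic acid sensing and then induce interferon genes. Irf9 is the DNA-contacting subunit of the complex ISGF3, which also holds Stat2 and carries the type I interferon signal to the nucleus. Irf1 activates antigen presentation and GTPase genes, and Irf2 binds the same sites and is known mainly as its antagonist. Irf5 acts downstream of Toll-like receptors in myeloid cells, while Irf4 and Irf8 pair with the factor Spi1 (PU.1) in lymphocytes, macrophages and dendritic cells.

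Most markers of the labelled tissue were low, and the sex-linked transcripts went against the labelled sex. Of 12 colon epithelium markers 8 were under 1 FPKM in every library, and Muc2, the colon mucin, did not exceed 0.193 FPKM. The 3 colon markers tested, Lgals4, Krt20 and Guca2a, were all higher in Usp25-/- without overlap (19.0% of all genes tested were), with a median log2 fold change of 2.31 with and without animal 139 (1.63 without 826 and 3.47 without 850), and 2 of them had an unadjusted limma p of at most 0.05 but 0 an adjusted one. Guca2a had 0.341 FPKM in 139, 0.868 in 140, 16.6 in 826 and 3.89 in 850. It passed the filter only through Usp25-/-, so its direction was partly set by that filter. Lgals4 had 7.04 FPKM in 139, 9.83 in 140, 70.6 in 826 and 28.8 in 850, and the part of epithelial content in the results below was not tested. The 10 lung epithelium markers summed to between 2277 and 5290 FPKM. The Y-linked Ddx3y stood at 12.7 to 30.3 FPKM, and Xist, the transcript of the inactive X chromosome, at no more than 0.11 FPKM. Values are therefore given by genotype label and not as colon measurements. Usp25 followed the labels, with 38.5 FPKM in 139 and 16.6 in 140 against 2.65 in 826 and 1.71 in 850. One library stood apart: the 11 neutrophil markers found summed to 42739 FPKM in animal 139, and to 786, 2207 and 1294 FPKM in 140, 826 and 850, with Camp alone listed at 0, in 140. Animal 139 also had the most genes above 0, with 20556, against 15603 in 140, 17242 in 826 and 15805 in 850. Depth per library is unknown, so values of 0 are not read as absence. Log2 fold changes of the members and medians of the lists are therefore given with and without animal 139. The part of neutrophils in these results was not tested, and in bulk tissue fewer cells of a type and less RNA per cell cannot be told apart.

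No member passed the test between the genotypes. Limma on log2(FPKM + 1), with Benjamini-Hochberg adjustment over 12011 genes, called 0 of the 8, as it called 0% of all genes tested. At an unadjusted limma p of 0.05, 2 members stood lower in Usp25-/-, Irf1 and Irf8, where 1.01% of all genes tested stood lower and 3.12% had such a p in either direction. The log2 fold change was negative in 7 of 8 members, against 46.5% of all genes tested. Their median was -0.98, beside 0.03 over all genes, and it was -0.23 without animal 139. Irf4, 1 of the 7, averaged 1.06 FPKM, just over the filter of 1 FPKM. It averaged 1.25 FPKM in Usp25+/+ and 0.858 FPKM in Usp25-/-, so its negative direction is not independent of that filter. Both Usp25-/- libraries lay below both Usp25+/+ libraries in 4 members, Irf1, Irf2, Irf5 and Irf8, where 14.7% of all genes tested did. They lay above in 1, Irf3, where 19.0% did (33.8% in either direction), and the genotypes overlapped in Irf4, Irf7 and Irf9. Within Usp25+/+, 5 of the 8 were at least 2 times as high in 139 as in 140, which was so for 13.4% of all genes tested.

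**Figure D1:**
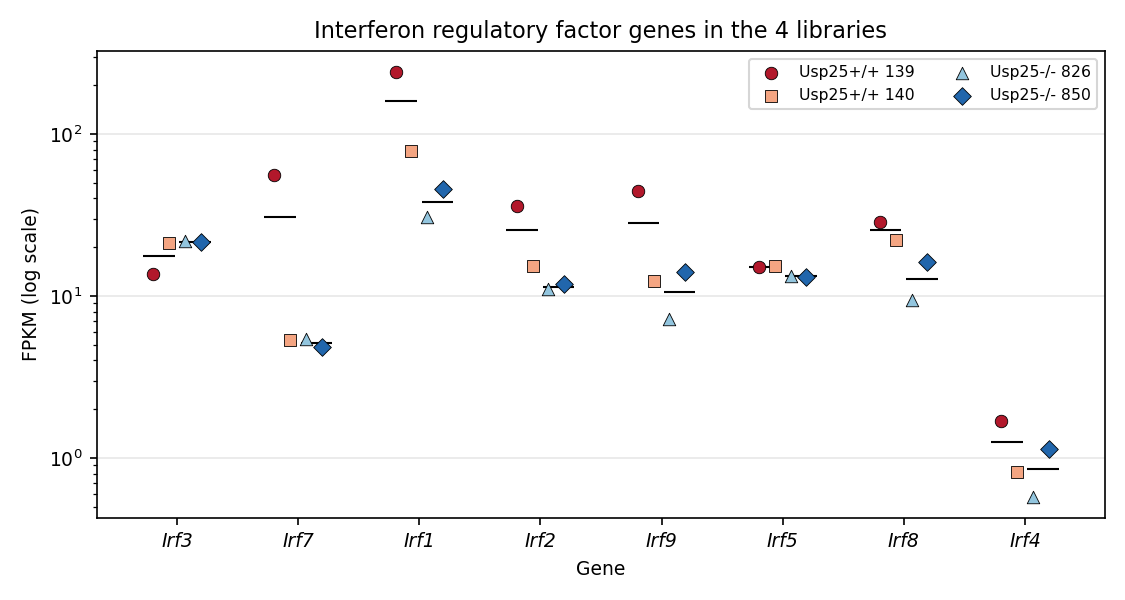
FPKM (log scale) of the 8 genes in each library, with a symbol for each animal and a short line at the mean of each genotype (n = 2). Irf1 is highest in every library and Irf4 lowest, and Irf7 stands at 56.1 FPKM in animal 139 and between 4.82 and 5.40 FPKM in the other 3.

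Irf1 was the most abundant member in every library. Animal 139 had 242 FPKM, 140 had 78.6, 826 had 30.6 and 850 had 46.0. The genotypes did not overlap, and animal 139 was 3.08 times as high as 140. Usp25+/+ averaged 160 ± 115 FPKM and Usp25-/- 38.3 ± 10.9 FPKM (SD, n = 2 each). This gave a log2 fold change of -1.85 (SE 0.60), with a limma unadjusted p of 0.0265 and an adjusted p of 0.960. Without animal 139 it was -1.05, so that 140 alone still lay above both Usp25-/- libraries, and without 140 it was -2.66. In mm9 Irf1 spans bases 53583516 to 53591876 of chromosome 11 (plus strand), and 3.40% of its exonic bases are shared with the opposite-strand gene Gm17334. The library preparation kept no strand information, so strand does not tell which gene the reads of those bases came from.

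Irf2, the antagonist of Irf1, had lower values in the same libraries over a narrower range. Its level was 35.7 FPKM in animal 139, 15.2 in 140, 11.1 in 826 and 11.8 in 850. Animal 139 stood above the other 3 libraries, which were close together without overlap of the genotypes. The change on the log2 scale was -0.97 (SE 0.45; limma adjusted p = 0.960), shrinking to -0.38 without animal 139 and widening to -1.56 without 140. Irf2 spans bases 47825099 to 47932812 of chromosome 8 (plus strand) and shares no exonic base with another annotated gene.

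Irf8 differed from Irf1 and Irf2 in that its Usp25+/+ libraries lay close together. This partner of Spi1, needed for monocytes and dendritic cells, had 28.7 FPKM in animal 139, 22.3 in 140, 9.39 in 826 and 16.2 in 850. Animal 139 was only 1.29 times as high as 140, and the genotypes did not overlap. Usp25+/+ averaged 25.5 ± 4.53 FPKM and Usp25-/- 12.8 ± 4.78 FPKM (SD, n = 2 each). On the log2 scale Irf8 differed by -0.98 (SE 0.37), with a limma unadjusted p of 0.0427 and an adjusted p of 0.960. It was -0.80 without animal 139, -1.15 without 140, -1.34 without 850 and -0.62 without 826, the library with the lowest Irf8. Irf8 spans bases 123260258 to 123280594 of chromosome 8 (plus strand).

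The promoters of Irf1, Irf2 and Irf8 are shown because these 3 members were at the same time lower without overlap and had an absolute log2 fold change above 0.9, a choice made after their values were seen. RefSeq start sites (GRCm38.p6 table) were used, 11 windows for the 8 members, each of 250 bases before to 50 after the start. Both strands were searched for the interferon-stimulated response element (a pair of GAAA blocks with any 2 bases between them), the STAT-type gamma-activated site TTCNNNGAA and the NF-kB motif. Capitals mark the matches, sequences run 5′ to 3′ on the plus strand, and each window was placed on mm9 by its single exact match.
Irf1, chr11:53583416-53583515, bases -100 to -1 from the start: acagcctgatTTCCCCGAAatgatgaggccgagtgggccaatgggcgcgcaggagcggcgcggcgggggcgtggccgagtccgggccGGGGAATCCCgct
Irf2, chr8:47824849-47825098, bases -250 to -1: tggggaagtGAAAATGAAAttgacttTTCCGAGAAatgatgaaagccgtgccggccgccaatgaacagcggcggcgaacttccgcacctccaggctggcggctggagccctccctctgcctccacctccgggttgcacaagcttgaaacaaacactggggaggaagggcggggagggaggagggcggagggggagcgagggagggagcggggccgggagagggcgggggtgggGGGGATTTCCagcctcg
Irf8, chr8:123260077-123260123, bases -181 to -135: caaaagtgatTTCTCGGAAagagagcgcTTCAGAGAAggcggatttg

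The Irf1 window held TTCCCCGAA at -90 to -82 and GGGGAATCCC, a match to the NF-kB motif, at -13 to -4. The Irf2 window held all 3 motifs, GAAAATGAAA at -241 to -232, TTCCGAGAA at -224 to -216 and GGGGATTTCC at -17 to -8. The Irf8 window held 2 gamma-activated site matches, TTCTCGGAA at -171 to -163 and TTCAGAGAA at -153 to -145. Over all 32851 promoter windows of the table, 3.44% held the response element, 8.30% the gamma-activated site and 4.51% the NF-kB motif. The windows of Irf3, Irf4, Irf5, Irf7 and Irf9, and the second windows of Irf1 and Irf8, held none of these letters. These matches describe the letters, and no binding was measured.

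Irf7 showed the widest range of the 8 and set animal 139 apart from the rest. This inducible amplifier of type I interferon stood at 56.1 FPKM in animal 139, 5.35 in 140, 5.40 in 826 and 4.82 in 850. The genotypes overlapped, since 826 lay above 140, and animal 139 was 10.5 times as high as 140. Its genotype difference of -1.64 in log2 (SE 1.02; limma adjusted p = 0.960) was -0.06 without animal 139 and -3.23 without 140. Over the 4 libraries 1.88% of all genes tested had a wider range on the log2 scale. Irf7 spans bases 148448605 to 148452380 of chromosome 7 (minus strand), with 1.49% of its exonic bases shared with Phrf1 on the opposite strand.

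Irf3, the constitutively made partner of Irf7, ran the other way. Animal 139 had 13.7 FPKM, 140 had 21.3, and 826 and 850 both had 21.7. Only animal 139 was low, and 140 lay just under the Usp25-/- libraries. Irf3 differed by 0.32 in log2 (SE 0.33; limma adjusted p = 0.960), and by 0.02 without animal 139. Irf3 spans bases 52253018 to 52258218 of chromosome 7 (plus strand) and shares 2.76% of its exonic bases with Bcl2l12 on the opposite strand. Bcl2l12 was listed at 2.97, 5.54, 3.35 and 6.42 FPKM in 139, 140, 826 and 850.

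Irf9, the subunit of ISGF3, was again high in animal 139. Levels were 44.4 FPKM in animal 139, 12.4 in 140, 7.20 in 826 and 14.0 in 850. The genotypes overlapped, with 850 above 140. Irf9 differed by -1.15 in log2 (SE 0.67; limma adjusted p = 0.960), or by -0.27 without animal 139, -2.03 without 140, -0.72 without 826 and -1.59 without 850. Irf9 spans bases 56222408 to 56228867 of chromosome 14 (plus strand) and shares 2.28% of its exonic bases with Rnf31 on the same strand.

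Irf5 was the steadiest member. Irf5 had 15.0 FPKM in animal 139, 15.3 in 140, 13.3 in 826 and 13.1 in 850. The genotypes did not overlap, and the libraries of each genotype differed by less than the genotypes did. It differed by -0.18 in log2 (SE 0.27; limma adjusted p = 0.960), and by between -0.19 and -0.17 whichever library was left out. A wider range over the libraries was found in 97.5% of all genes tested. Irf5 spans bases 29476625 to 29491869 of chromosome 6 (plus strand) and shares 14.2% of its exonic bases with Tnpo3 on the opposite strand, the largest share among the 8. Tnpo3 itself was listed at 15.7, 10.7, 12.4 and 11.6 FPKM in 139, 140, 826 and 850.

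Irf4, a factor of plasma cells, activated T cells and some macrophages, was the least abundant in every library. Animal 139 had 1.69 FPKM, 140 had 0.813, 826 had 0.576 and 850 had 1.14. The genotypes overlapped. A difference of -0.27 in log2 (SE 0.41; limma adjusted p = 0.960) became 0.02 without animal 139. Irf4 spans bases 30841095 to 30858796 of chromosome 13 (plus strand), with no exonic base shared with another gene.

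**Figure D2:**
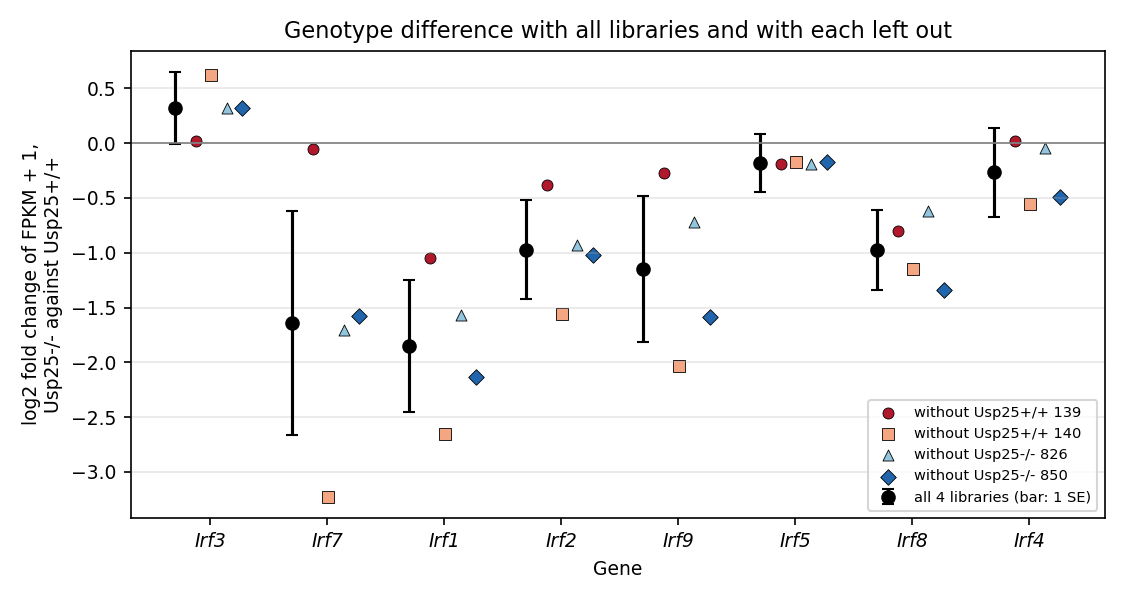
Log2 fold change of FPKM + 1, Usp25-/- against Usp25+/+, for each gene with all 4 libraries (black, bar of 1 SE) and with each library left out (coloured by the library left out). Without animal 139, Irf7 moves from -1.64 to -0.06, Irf1 from -1.85 to -1.05 and Irf8 from -0.98 to -0.80.

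The order of the members below Irf1 depended on the library. In animal 139 the second was Irf7 and the seventh Irf3, whereas in the Usp25-/- libraries the second was Irf3 and the seventh Irf7. In 140 the second was Irf8 at 22.3 FPKM, next to Irf3 at 21.3 FPKM. Means over the 4 libraries were 19.6 FPKM for Irf3, 19.5 for Irf9, 19.1 for Irf8, 18.4 for Irf2 and 17.9 for Irf7, neighbours that did not differ beyond their spread between libraries.

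Ratios between 2 members within a library do not depend on how that library was scaled. The ratio of Irf1 to Irf2 was 6.77 and 5.17 in animals 139 and 140 and 2.77 and 3.89 in 826 and 850. The libraries were thus apart by genotype, with a difference of -0.85 in log2 ratio (means 2.56 ± 0.28 against 1.71 ± 0.35, SD, n = 2 each). The ratio of Irf7 to Irf3 was 4.09 in 139 and 0.251, 0.249 and 0.223 in 140, 826 and 850. Here only animal 139 stood apart, and Irf7 was below Irf3 in the rest. Irf8 stood at 16.9 and 27.4 times Irf4 in Usp25+/+ and at 16.3 and 14.2 times in Usp25-/-. Animals 139 and 826 were nearly equal in this ratio, and Irf4 lay between 0.576 and 1.69 FPKM, near the filter of 1 FPKM. For each of these 3 ratios the exact permutation p was 0.333 (two-sided), the smallest that 2 against 2 libraries allow, out of 8 ratios computed, so that none can pass.

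Partners of the factors were compared in the same way. The ratio of Irf9 to Stat2 was 1.87, 1.18, 1.38 and 1.51 in animals 139, 140, 826 and 850. The genotypes overlapped, and Irf9 stayed within 2-fold of Stat2 in every library while it ranged from 7.20 to 44.4 FPKM. Irf8 was listed at 0.155, 0.0918, 0.0857 and 0.109 times Spi1, and at 0.298, 0.422, 0.199 and 0.337 times Csf1r, the receptor that marks monocytes and macrophages. The genotypes overlapped in both ratios. Spi1 had 185 FPKM in 139, 243 in 140, 110 in 826 and 148 in 850, with no overlap (-0.73 in log2, SE 0.35; limma adjusted p = 0.960), and Csf1r had 96.2, 52.8, 47.3 and 48.0 FPKM in the same order. The ratio of Irf5 to Csf1r was 0.156 in 139 and 0.289, 0.282 and 0.274 in 140, 826 and 850.

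**Figure D3:**
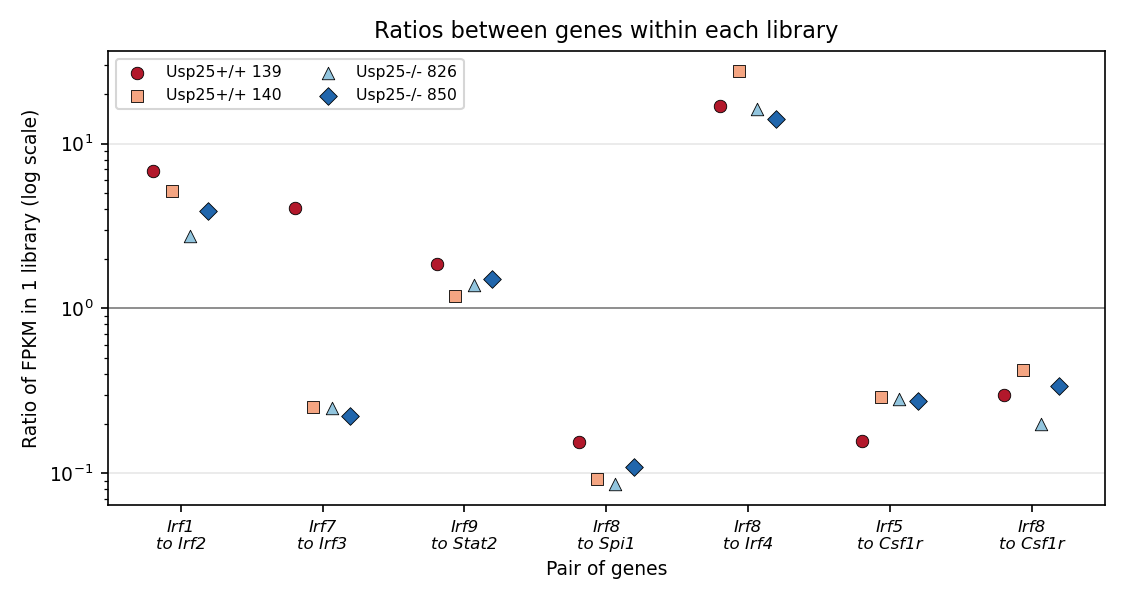
Ratio of the FPKM of 2 genes within each library (log scale), with a symbol for each animal and a grey line at equal levels. The ratio of Irf1 to Irf2 separates the genotypes, at 5.17 and above in Usp25+/+ and 3.89 and below in Usp25-/-, while that of Irf7 to Irf3 separates animal 139 from the rest.

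Markers of cells known for Irf8 and Irf4 had directions that differed between the lists, and none passed the test. Of 10 conventional dendritic cell markers 8 were tested, 3 with a negative (46.5% of all genes tested) and 5 with a positive log2 fold change. Their median was 0.04, or -0.17 without animal 139. Wdfy4 was lower and Cd209a higher without overlap, as were 14.7% and 19.0% of all genes tested. Cd209a had 0.732, 0.627, 0.816 and 3.65 FPKM in 139, 140, 826 and 850, so it passed the filter only through 850. The log2 fold change of Cd209a was 0.79, and 0.11 without 850. The 10 markers summed to 137 and 364 FPKM in Usp25+/+ and 227 and 294 FPKM in Usp25-/-. Most of that sum was Naaa, and Xcr1 and Flt3 stayed under 1 FPKM in every library. Of 9 plasmacytoid dendritic cell markers 4 were tested, 2 negative and 2 positive (median -0.06, or -0.0013 without 139). Runx2 was lower and Ly6d higher without overlap, beside the same 14.7% and 19.0% of all genes tested. The 9 markers summed to 133 and 115 FPKM in Usp25+/+ and 408 and 155 FPKM in Usp25-/-. Most of that was Bst2 (63.4 to 83.4 FPKM) and Ly6d, which had 38.1, 32.3, 337 and 69.7 FPKM in 139, 140, 826 and 850. The more restricted Siglech and Ccr9 did not exceed 0.643 FPKM, and Siglech was listed at 0 in 140 and 826. The 10 B cell markers summed to 14.3, 35.8, 13.6 and 41.0 FPKM in 139, 140, 826 and 850, with Pax5 listed at 0 in all but 850. Cd22 alone had 7.93, 28.1, 9.24 and 17.1 FPKM in that order. Of 4 tested, 1 had a negative log2 fold change (46.5% of all genes tested) and 3 a positive one (median 0.44, or 0.12 without 139). The 9 plasma cell markers summed to 254, 251, 302 and 239 FPKM in 139, 140, 826 and 850, mostly Xbp1 and Sdc1. Of the 7 tested (median -0.05, or 0.11 without 139), 0 separated the genotypes, where 33.8% of all genes tested did. The 10 monocyte and macrophage markers had a median log2 fold change of -0.32 (-0.30 without 139), and 9 were negative (46.5% of all genes tested were). Csf1r and Adgre1, 2 of the 10, were lower without overlap (14.7% of all genes tested were). The sum of the 10, mostly Lyz2, was 16735 and 40765 FPKM in Usp25+/+ and 33487 and 33926 FPKM in Usp25-/-. Of 10 alveolar macrophage markers, 8 had a positive and 2 a negative log2 fold change (46.5% of all genes tested were negative). Their median was 0.20, or -0.21 without 139, and Siglecf was lower and Pparg higher without overlap (14.7% and 19.0% of all genes tested). Of 12 T and NK cell markers 7 were tested, 4 negative and 3 positive (median -0.05, or -0.41 without 139). Cd4 alone was lower without overlap (14.7% of all genes tested were). The part of these cells in the Irf8 result was not tested.

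The sensors and adaptors that signal to Irf3, Irf5 and Irf7 had a negative median log2 fold change, with none past the test. Of 16 tested, 0 passed the adjusted threshold, 15 had a negative log2 fold change (46.5% of all genes tested) and 9 were lower without overlap (14.7% of all genes tested; median -0.60, and -0.37 without animal 139). Ifih1, which senses long double-stranded RNA, had 26.4 FPKM in 139, 6.65 in 140, 3.61 in 826 and 4.80 in 850, differing by -1.48 in log2 (SE 0.64), or by -0.56 without animal 139. The single-stranded RNA receptor Tlr7 had 34.2, 18.7, 10.3 and 13.1 FPKM in that order (-1.05 in log2, SE 0.39), and differed by -0.64 without 139. Ddx58, the RNA sensor RIG-I, differed by -1.15 in log2 (SE 0.58), and by -0.42 without 139. Zbp1, a sensor of Z-form nucleic acid, was listed at 99.4 FPKM in 139 and between 16.0 and 17.0 FPKM in the other 3.

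Among 13 kinases and modifiers that act on the factors, 0 passed, 10 had a negative log2 fold change and 4 were lower without overlap (46.5% and 14.7% of all genes tested; median -0.28, or -0.18 without animal 139). Tbk1, which phosphorylates Irf3 and Irf7, had 56.2 FPKM in 139, 23.6 in 140, 20.6 in 826 and 18.4 in 850. Its inducible relative Ikbke was listed at 135 FPKM in animal 139, 4.71 in 140, 10.8 in 826 and 11.3 in 850. Ikbke differed by -1.21 in log2 (SE 1.45), which turned to 1.08 without animal 139. Tnfaip3, an inhibitory ubiquitin-editing enzyme, differed by -1.28 in log2 (SE 0.67), and by -0.34 without 139.

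Interferon genes were hardly listed. Of 20 interferon ligands, 18 stayed under 1 FPKM in every library and 4 were listed at 0 in all. Ifnb1, the beta interferon that Irf3 and Irf7 induce, did not exceed 0.464 FPKM, and that value was in 850. Ifng, the lymphocyte interferon that induces Irf1, had 8.36 FPKM in animal 139 and 0.456 in 140, and was listed at 0 in both Usp25-/- libraries (limma adjusted p = 0.960). Ifne, an epithelial interferon, was listed at 5.45 FPKM in 826, 0.154 in 139 and 0 in the other 2. Of 11 interferon receptor and JAK-STAT genes 0 passed, 10 had a negative log2 fold change and 5 were lower without overlap (46.5% and 14.7% of all genes tested), with a median of -0.58 that was -0.02 without animal 139. Stat2 had 23.8 FPKM in 139, 10.5 in 140, 5.21 in 826 and 9.28 in 850. Here 140 lay above both Usp25-/- libraries, unlike in its partner Irf9.

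DNA-binding partners and inhibitors split. Of 13 tested partners 0 passed, 12 had a negative log2 fold change and 8 were lower without overlap (46.5% and 14.7% of all genes tested; median -0.55, or -0.30 without animal 139). Batf, which pairs with Irf4 and Irf8, had 70.8 FPKM in 139, 25.3 in 140, 19.9 in 826 and 18.9 in 850 (-1.09 in log2, SE 0.53, and -0.37 without 139). Of 12 corepressors and feedback inhibitors 0 passed, 8 had a negative and 4 a positive log2 fold change (median -0.14, or 0.14 without 139), and 3 were lower and 3 higher without overlap, beside 14.7% and 19.0% of all genes tested. The 3 higher were the Irf2-binding corepressors Irf2bp1, Irf2bp2 and Irf2bpl, singled out after their values were seen. Irf2bp1 had 1.79 FPKM in 139, 5.13 in 140, 5.85 in 826 and 6.20 in 850, and Irf2bp2 had 24.4, 32.0, 35.6 and 38.0 FPKM in the same order. Without animal 139 these 3 differed in log2 by 0.20, 0.19 and 0.17. The 3 lower were Socs3, Ptpn6 and Eif4ebp2, and Socs3, an inhibitor of cytokine receptors, differed by -0.90 in log2 (SE 0.34), and by -0.64 without 139.

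Known targets were mostly highest in animal 139, and none passed the test. All 32 tested targets of ISGF3, Irf3 and Irf7 had a negative log2 fold change, 0 passed, and 14 were lower without overlap (46.5% and 14.7% of all genes tested), while 31 were highest in animal 139, where 29.9% of all genes tested were. Their median of -1.03 was -0.12 without animal 139. Ifit2, an antiviral protein induced by interferon, had 22.3 FPKM in 139, 2.16 in 140, 0.432 in 826 and 1.29 in 850. Of 29 tested targets of Irf1, 0 passed, 27 had a negative log2 fold change and 17 were lower without overlap (46.5% and 14.7% of all genes tested), with a median of -1.29 that was -0.41 without animal 139. Gbp5, a GTPase of cell-autonomous defence, had 119.5, 4.44, 2.83 and 3.40 FPKM in the same order, and Nos2, the inducible nitric oxide synthase, 67.7, 1.44, 0.501 and 1.61 FPKM. The 20 tested myeloid targets of Irf5 and Irf8 had 17 negative log2 fold changes, 0 passed and 7 lower without overlap (against the same 46.5% and 14.7%; median -0.62, or -0.17 without 139). Ccl3, a chemokine, was listed at 3372 FPKM in 139 and between 116 and 134 FPKM in the rest. The 14 tested genes tied to Irf4 had a median of -0.07 (-0.04 without 139), with 9 negative and 5 positive, 0 passed, and 3 lower and 1 higher without overlap, beside 14.7% and 19.0% of all genes tested.

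**Figure D4:**
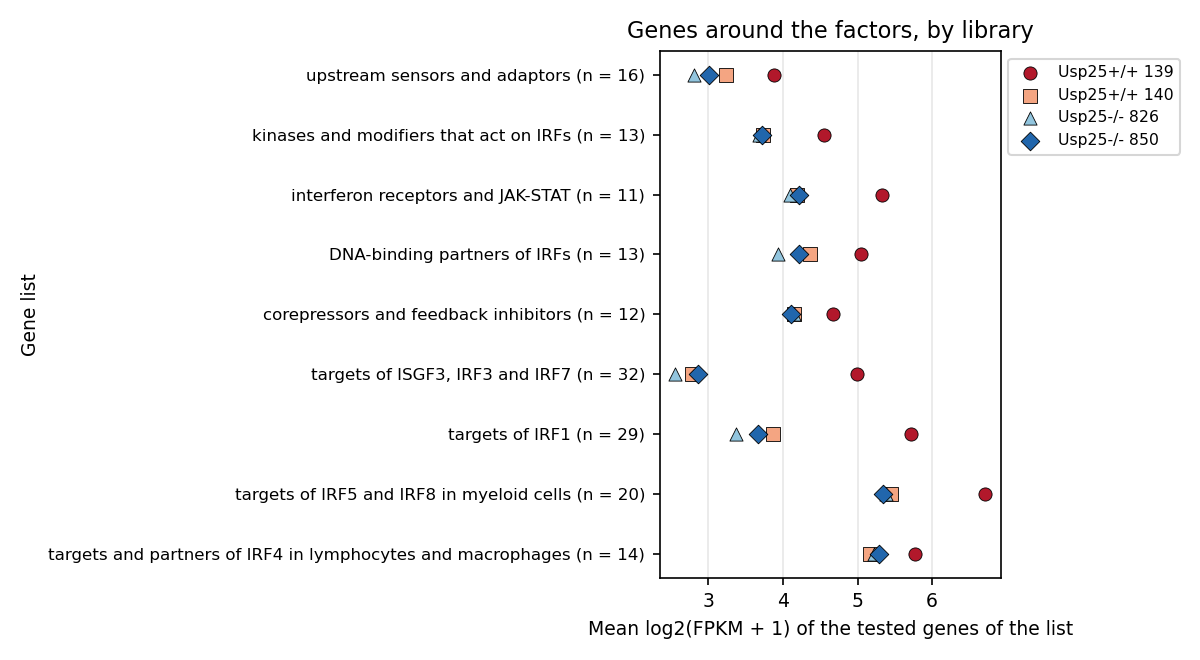
Mean log2(FPKM + 1) of the tested genes of each list (n beside its name), with a symbol for each library. Animal 139 is highest in all 9 lists, and the targets of ISGF3, Irf3 and Irf7 stand at 4.99 in 139 and between 2.56 and 2.86 in the other 3.

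For the 3 members with the widest range, Irf7, Irf1 and Irf9, the genes with the most alike profile were found, over 4 libraries only. The measure was the Euclidean distance between log2(FPKM + 1) values centred on each gene's mean. The genes searched were those tested, except the members and genes named Gm with a number or ending in Rik. Nearest to Irf7 was Isg15, the ubiquitin-like modifier induced by interferon, at a distance of 0.0714. Isg15 was listed at 154, 15.4, 15.4 and 14.6 FPKM in 139, 140, 826 and 850, the same plateau in 3 libraries and peak in 139. Itgb2l and Cxcl11 followed, both at or under 0.0659 FPKM outside animal 139. Nearest to Irf1 were Irgm2, an interferon-inducible GTPase, Nlrc5, the transactivator of class I antigen presentation, and Rps6ka2, at distances of 0.307 to 0.387. Nlrc5 was listed at 16.1, 2.93, 0.930 and 1.99 FPKM in that library order, with 140 above both Usp25-/- libraries as in Irf1. Nearest to Irf9 were Fam169b, Tapbp and Treml2, and Tapbp, the peptide-loading chaperone tapasin, was listed at 162, 47.5, 32.3 and 54.4 FPKM, with 850 above 140 as in Irf9.

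**Figure D5:**
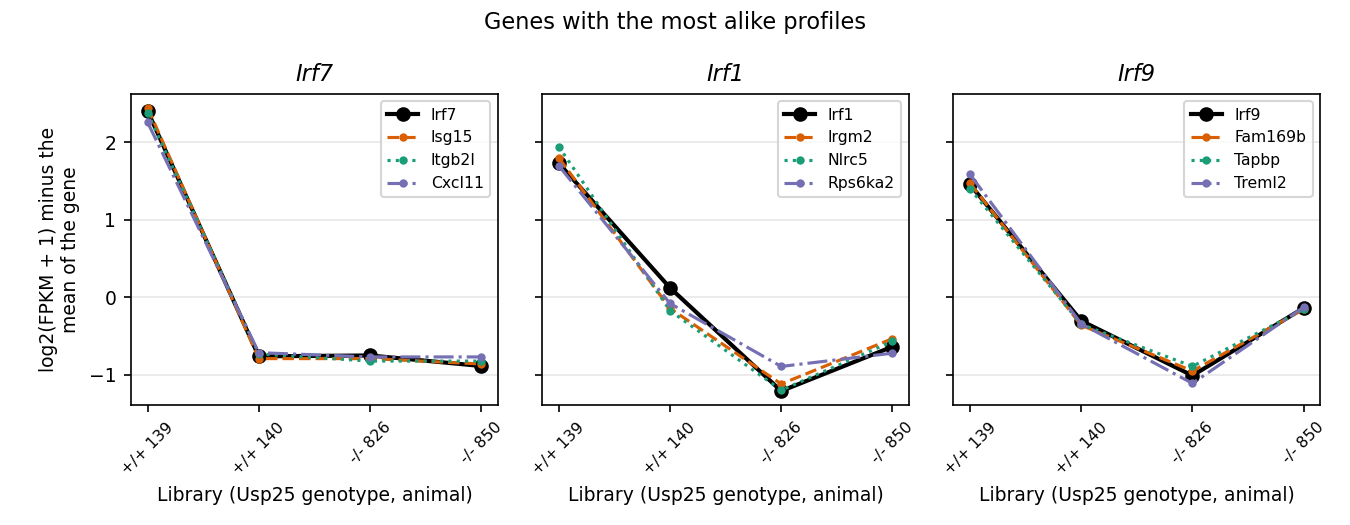
Log2(FPKM + 1) minus the gene's mean in the 4 libraries, for Irf7, Irf1 and Irf9 (black) and, of the genes searched, the 3 with the smallest Euclidean distance to each (coloured). Irf7 and Isg15 share a peak in animal 139 and a flat level elsewhere, and Irf1 keeps animal 140 above 826 and 850.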

How the data were processed

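The deposited files hold 1 value per gene and library, taken as FPKM because Cufflinks is named; no header states the unit. Cutadapt, TopHat2 2.1.1, Cufflinks and build mm9 were used by the authors, per the submitters' processing notes. Which annotation they used is not given in these sources, and depth per library is unknown, so no counting interval is given. Totals were 526652 to 565645 FPKM. The test was limma 3.58.1 run in R 4.3.3 (trend, two-sided) on log2(FPKM + 1), a scale that understates the change of weakly expressed genes. Genes averaging 1 FPKM or more entered it, and p-values were Benjamini-Hochberg adjusted over all 12011. The procedure was tested on simulated data. Animals share no replicate number, and n is 2 per genotype. Positions came from GENCODE vM1 on NCBIM37 (mm9). The members and gene lists were chosen with earlier results of these data known. Named genes were all members, up to 4 tested genes of each list with the largest absolute log2 fold change (not all are shown), ratio partners (1 of them is not reported here) and the 3 most alike genes.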

Additional observations from a re-analysis of the deposited data

How the results depend on the processing

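The count of genes past the adjusted threshold was 0 in the fit with all libraries and under all 14 alternatives (pseudocount, filter, scaling, variance model and each library left out), while 375 genes had an unadjusted limma p of at most 0.05, and 108 without animal 826 or 2593 without 140. The member median of -0.98 ranged from -1.36 without animal 140 to -0.23 without 139, and from -1.03 to -0.96 under the other pseudocounts, filters and scalings. Irf1 ranged from -2.66 to -1.05 with a library left out, Irf7 from -3.23 to -0.06, Irf9 from -2.03 to -0.27, Irf2 from -1.56 to -0.38 and Irf8 from -1.34 to -0.62. Irf4 turned to 0.018 without animal 139 (range -0.55 to 0.018) and was not tested with a minimum mean of 5 FPKM. The smallest limma adjusted p of a member was 0.0655, for Irf7 without animal 140. Without animal 139 the log2 fold change also turned for Ikbke (1.08, range -3.49 to 1.08), Jak2 (0.32, range -2.41 to 0.32), Batf2 (0.10, -2.86 to 0.10), Usp18 (0.45, -2.43 to 0.45), Ifit1 (0.0148, -4.51 to 0.0148), Rsad2 (0.50, -4.78 to 0.50), Ccl3 (0.0837, -4.75 to 0.0837) and Il12a (0.28, -4.10 to 0.28). Ifne turned to -0.10 without 826 (range -0.10 to 2.58). Adding 1 to both values kept the direction of all 8 ratios. The cause was not tested, and where 1 library remained its spread was taken from the other genotype. No paired analysis was possible because the animals share no replicate number.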

Other observations

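The make-up of the family differed between libraries. Summed over the 8 members, the level was 437 FPKM in animal 139, 171 in 140, 99.2 in 826 and 128.7 in 850. Irf1 made up 55.3% and 45.9% of that sum in Usp25+/+ and 30.8% and 35.7% in Usp25-/-, so that the genotypes did not overlap in its share. Without Irf1 the sum was 195 and 92.6 FPKM in Usp25+/+ and 68.7 and 82.8 FPKM in Usp25-/-. Irf3 made up 3.14% in animal 139 and 12.5%, 21.9% and 16.8% in 140, 826 and 850. These shares were chosen after the values were seen and were not tested.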
